A study of Mus musculus with 6 samples.

Results

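The short RNAs described here are the 19 to 25 nt sequences that the deposited annotation of Ago-bound RNA from mouse brain assigns to an mRNA and to no miRNA. They were taken from the normalized table of unique sequences as every entry that was above 0 in at least 1 of the 6 samples, that carried no miRNA name, whose RNA annotation named an Ensembl mRNA, and whose length lay between 19 and 25 nt. This gave 13428 sequences of the 65087 that were above 0. They are called mRNA-annotated sequences below, and they named 6537 genes. The 6 samples were brains of male mice of 3 months on a C57BL/6J background. The 3 Tau tg mice carried the cDNA of a fragment of human tau under the Thy1.2 promoter, which drives expression mainly in neurons, and the 3 WT mice were the control group. The tissue is given as hippocampus in one label and as cortex and hippocampus combined in the protocol, so the exact region cannot be stated. Each sequence is given as reads scaled to the size of its library (RPM), and values of a group are given in the order of replicates 1, 2 and 3.

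Argonaute proteins hold a short RNA of about the length of a miRNA and pair with target mRNAs mainly through the 6mer seed, read positions 2 to 7. Mature miRNAs are cut from hairpins at fixed positions, so each has a set first base and a narrow range of lengths, and many start with U. Fragments of mRNAs and of other RNAs can also be bound by Ago, and the study reads any bound RNA through its seed. To each seed the study assigns a viability, the percent of cells left after transfection of a siRNA-like duplex with that seed, here averaged over 3 murine cell lines. A low viability marks a seed as toxic in that assay. In that screen the duplexes shared all bases outside the seed. In bulk tissue, fewer cells of a type and less RNA per cell cannot be told apart.

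Most of these sequences did not match the mRNA that they were named after. Of the 13145 sequences that named a transcript held in GENCODE M21 (GRCm38), the longest exact stretch shared with the named transcript had a median of 14 nt, with 13 nt at the 5th percentile and 18 nt at the 95th percentile. A median of 7 bases of each sequence lay outside that stretch. The stretch covered the whole seed, positions 2 to 7, in 34.7% of these sequences. An exact full-length match to the named transcript was found for 373 of the 13428 sequences (2.78%), and they made 1.56% of the mean RPM. Over all transcripts, the longest exact stretch had a median of 15 nt on the sense strand and 15 nt on the antisense strand. Allowing 1 substitution on either strand brought the number matching any transcript to 1560 (11.6%). For comparison, 76.3% of the mean RPM of miRNA sequences of 19 to 25 nt lay exactly in a RefSeq hairpin, as did 25.02% of the miRNA sequences by number. The label mRNA therefore goes against the sequence for most of these RNAs, and a gene name below is the name in the annotation, not the shown source. The annotation came from a BLAST search, which reports partial alignments.

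The sequences that carry most of the signal are shown first, because their letters show how far each one matched its gene. The following 3 sequences are the leading ones of 3 of the largest gene names, and the capitals mark the longest stretch also present in the named transcript.
Plec-named: cGCGGGTGCTTACTGAcccttt
Gm12405-named: aGCCTGGTCCACATGGgtcgga
Ubr3-named: gccGCCGCGGCGGCCGTCGGGt
The Plec-named and Gm12405-named sequences matched over 15 of 22 nt and the Ubr3-named one over 18 of 22 nt. No exact match to any transcript of either strand was found for any of these 3.

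A second set is shown because 3 sequences named after 3 different genes were identical from read position 8 to the end. The capitals mark the 12-nt stretch that they share, at positions 8 to 19.
Kdm5a-named, seed UAGUCG: ttagtcgACATGTAAACCA
Hgfac-named, seed GGGGGC: tgggggcACATGTAAACCA
Fbn1-named, seed GGCAGU: tggcagtACATGTAAACCA
Each began with T, then carried its own seed, then the same 12 bases. The match to the named transcript was 13 nt for Kdm5a and Hgfac and 14 nt for Fbn1. GGCAGU is also the seed of the miR-34 and miR-449 family. In its work on cultured cells the study transfected short RNAs that it names by 2 of these 3 seeds, GGCAGU and GGGGGC. It also transfected a control short RNA whose seed the sources used here do not give, so UAGUCG is not set apart. Whether the 3 sequences shown came from siRNA-like duplexes of the design used in the viability screen was not tested, since the sources give no duplex sequence.

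A further set holds sequences that did match their mRNA over the full length, with the 6mer seed in capitals. They are shown because for this small subset a place in the genome can be given, that of the match in the named transcript. Whether these sequences, or the exact matches placed further below, also match elsewhere in the genome was not tested. Each sequence printed in this set was above 0 in a single sample.
Thop1 exact: cAGCCGGcagctggccgtcgcag
Nab2 exact: tGGACCCgggccgcgcgcg
Alkbh5 exact: cAAGTCCatgacgtcccggga
Fads6 exact: tATGATGtctgtcacaactt
mt-Nd4 exact: cGCACATggcctcacatcatcac
mt-Co1 exact: aCTACCCagatgcttacaccaca
Mapt exact: aAATAAAgttattactctgaata
Thy1 exact: aCCTGGTacagtcatactctgt
By GENCODE M21 on GRCm38, the Thop1 sequence lies in coding sequence at chr10:81080476-81080498 (plus strand) and the Nab2 sequence in the 5′ UTR at chr10:127666529-127666547 (minus strand). The Alkbh5 sequence lies in coding sequence at chr11:60538464-60538484 (plus strand) and the Fads6 sequence in the 3′ UTR at chr11:115280429-115280448 (minus strand). The mt-Nd4 and mt-Co1 sequences lie in the coding sequences of the mitochondrial genome at chrM:11117-11139 and chrM:6652-6674. The Mapt sequence lies at the end of the 3′ UTR at chr11:104332066-104332088 (plus strand) and the Thy1 sequence in the 3′ UTR at chr9:44047871-44047892 (plus strand).

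The last set gives the mature mouse miRNAs, from RefSeq on GRCm38.p6, whose variants with 1 substituted base were annotated as mRNA. The capitals mark bases 2 to 8.
mmu-miR-21a-3p: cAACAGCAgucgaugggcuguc
mmu-miR-21a-5p: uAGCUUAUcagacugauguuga
mmu-miR-3099-3p: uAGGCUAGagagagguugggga
mmu-let-7b-5p: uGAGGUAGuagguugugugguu
No pair of these 4 shared bases 2 to 8. The miR-21a arms lie at chr11:86584082-86584103 and chr11:86584120-86584141 on the minus strand, inside the gene Vmp1. The other 2 lie at chr7:6803638-6803659 (miR-3099-3p) and chr15:85707325-85707346 (let-7b-5p).

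The libraries differed in depth. Whole reads recovered from the RPM values summed to between 998248 (WT 3) and 6879551 (Tau tg 1) per sample. The mRNA-annotated sequences took 55058, 72053 and 53222 reads in WT and 120612, 39677 and 89803 reads in Tau tg. Rare reads had been removed before deposit, by a rule that the sources used here do not give, yet values of a single read were still listed. A value of 0 means that no read of the sequence is listed for that sample. One read was worth between 0.142 RPM (Tau tg 1) and 0.917 RPM (WT 3), and between 17.99% (Tau tg 1) and 38.7% (WT 2) of the sequences detected in a sample stood at 1 to 3 reads.

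Few sequences recurred between brains. The number detected was 2966, 2555 and 2422 in WT and 4385, 2301 and 3948 in Tau tg, with the largest number in the deepest library. Of the 13428 sequences, 11002 (81.9%) were above 0 in a single sample, and these made 54.5% of the mean RPM. Only 227 (1.69%) were above 0 in all 6 samples, yet they made 22.1% of the mean RPM. The 10 most abundant sequences made 16.4% of the mean RPM, the 1000 most abundant 49.3%, and the 3 largest gene names 19.4%. A single sequence stood behind 4032 of the 6537 gene names.

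The lengths were spread more widely than those of miRNAs. In the 6 samples, sequences of 22 nt made 15.4% to 28.1% of the RPM of the mRNA-annotated sequences and 38.2% to 40.6% of that of the miRNAs. Sequences of 19 nt made 17.0% to 32.4% against 2.14% to 3.09% for miRNAs. At the lower limit of the length rule, 2628 sequences had 19 nt, with 8350, 11146 and 9612 RPM in WT brains and 3970, 6270 and 6264 RPM in Tau tg brains, while 2680 sequences just outside it had 18 nt, with 5445, 7911 and 8999 RPM in WT brains and 2515, 5266 and 6138 RPM in Tau tg brains. At the upper limit, 696 sequences had 25 nt, with 846, 1585 and 874 RPM in WT brains and 373, 989 and 1084 RPM in Tau tg brains, and 396 just outside it had 26 nt, with 373, 898 and 686 RPM in WT brains and 139.9, 513 and 449 RPM in Tau tg brains. The number of sequences was thus similar on both sides of the lower limit and fell across the upper one.

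The transcripts named were mostly protein coding. Of the 13428 sequences, 9211 (68.6%) named a protein-coding transcript, 1555 (11.6%) a retained intron, 989 (7.37%) a processed transcript, 548 (4.08%) a transcript of nonsense-mediated decay and 429 (3.19%) an antisense transcript. A further 283 named a transcript that is not in GENCODE M21. The antisense class held few sequences but 3867 mean RPM, of which the Gm12405 name held most.

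Sorting the sequences by what their letters matched left most of them without a match. By the classes used here, 11231 sequences with 78.1% of the mean RPM fell in none of them. Variants of a miRNA hairpin with at most 1 substitution, or with up to 3 bases removed from the 3′ end, numbered 645 (6.95% of the mean RPM). The 12-nt stretch shown above was in 38 sequences (4.84%). A stretch of at least 16 nt in common with tRNA-annotated sequences of the same table was found in 335 (2.90%), and one in common with rRNA-annotated sequences in 125 (0.693%). Exact sense matches to any transcript numbered 447 (1.63%), exact antisense matches 37 (0.162%) and matches to a transcript with 1 substitution 473 (2.88%). Each sequence was counted once, in the first class that it met. The order was the 12-nt stretch, both groups described next, hairpin variants, tRNA, rRNA, exact sense, exact antisense and 1 substitution. A different stretch of 11 nt was shared by 75 sequences (1.22%), which summed to 2501 RPM in WT 3 and to 0, 0, 1.85, 56.9 and 5.32 RPM in WT 1, WT 2 and Tau tg 1, 2 and 3. Another 22 sequences, all within 4 substitutions of the most abundant one, summed to 1334 RPM in Tau tg 1, to 1.40 RPM in WT 1 and to 0 in the other 4 samples. Both of these groups thus lay almost wholly in 1 library.

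The largest name was Gm12405, a predicted antisense transcript at chr4:41642185-41643077. Its 129 sequences summed to 728, 6632 and 4230 RPM in WT brains and to 1190, 3448 and 3738 RPM in Tau tg brains. The groups overlapped, and WT 1 was the lowest sample. The family built on the core of its leading sequence, positions 4 to 19, held 145 sequences under 13 gene names. In that family 94.1% of the RPM started at the same position relative to the core, with 38.0% at 22 nt and 31.9% at 23 nt. The 5′ end was thus nearly fixed. The Gm12405 name held 95.3% of the RPM of the family.

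Plec, which encodes the cytoskeletal linker plectin (chr15:76170974-76232574), was the next name. Its 43 sequences summed to 344, 1980 and 2744 RPM in WT brains and to 949, 1910 and 2551 RPM in Tau tg brains, with WT 1 again the lowest. The core family held 32 sequences, of whose RPM 98.4% started at the same position relative to the core and 82.1% was 22 nt long. Its leading sequence alone was at 222, 1609 and 2252 RPM in WT brains and at 706, 1624 and 1854 RPM in Tau tg brains. The family was present in every sample, at 328 RPM or more.

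Ubr3, a ubiquitin ligase (chr2:69897246-70024013), was named by 71 sequences with 99.3, 628 and 720.1 RPM in WT brains and 161, 318 and 381 RPM in Tau tg brains. In its core family 39.0% of the RPM started at the position of the leading sequence, so its 5′ end was less fixed than that of Plec. Pogz, a zinc finger protein of chromatin (chr3:94837567-94882326), had 86.7, 512 and 415 RPM in WT brains and 169, 396 and 517 RPM in Tau tg brains, and its leading sequence shared a stretch with tRNA-annotated sequences. Raly, an RNA-binding protein (chr2:154791096-154867261), had 47.8, 598 and 268 RPM in WT brains and 84.1, 110.4 and 202 RPM in Tau tg brains. In all 3 names the groups overlapped.

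Vmp1, a membrane protein of the autophagy pathway whose gene hosts Mir21a (chr11:86583865-86683836), was named by 245 sequences. Of these, 202 were variants of a miRNA hairpin, so the name stood for miR-21a. The sum was 526, 1036 and 3233 RPM in WT brains and 1412, 1413 and 2842 RPM in Tau tg brains. Its leading sequence differed from mmu-miR-21a-3p by G6C, where positions are counted from 1 at the 5′ end of the mature miRNA and the base of the mature miRNA is given first. This substitution lies in the seed and changes it to AACACC. The 10 sequences with G6C summed to 231, 443 and 2191 RPM in WT brains and to 1059, 875 and 2023 RPM in Tau tg brains, with WT 3 the highest. No other substitution of a miRNA came near this level. Human miR-21-3p is known to differ from the mouse form within the seed, and whether these reads came from mouse RNA or from RNA of another species was not tested.

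The next substitutions were far lower. A7G in mmu-miR-3099-3p, in 8 sequences under several gene names, summed to 110.1, 21.005 and 82.6 RPM in WT brains and to 114, 181 and 126 RPM in Tau tg brains. A10G in mmu-let-7b-5p, in 5 sequences, summed to 64.6, 70.5 and 66.0 RPM in WT brains and to 141, 140.5 and 78.1 RPM in Tau tg brains. For mmu-miR-21a-5p the substitutions were spread over many positions, of which A12G was the largest at a mean of 54.9 RPM and U5C the next at 39.0 RPM. By hairpin, there were 203 sequences of Mir21a (1707 mean RPM), 24 of Mir3099 (152 mean RPM), 45 of Mir22 (120 mean RPM), 15 of Mirlet7b (117 mean RPM) and 64 of Mir125a (85.8 mean RPM).

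The sequences with the 12-nt stretch differed between libraries in an all-or-none way. With seed UAGUCG (viability 83.7%) they summed to 3562, 2564 and 3.67 RPM in WT brains and to 1.28, 0.836 and 0 RPM in Tau tg brains. With seed GGGGGC (viability 13.0%) they were at 0 in the 3 WT samples and at 0.285, 1302 and 757 RPM in Tau tg brains. With seed GGCAGU (viability 25.1%) they summed to 1.87, 8.81 and 1498 RPM in WT brains and to 366, 0 and 0 RPM in Tau tg brains. Each seed was thus high in 2 libraries, and each library was high in a single one of the 3 seeds. WT 1 and WT 2 had UAGUCG, WT 3 and Tau tg 1 had GGCAGU, and Tau tg 2 and Tau tg 3 had GGGGGC. Over all 38 sequences the stretch made 14.0%, 5.32% and 3.09% of the RPM of mRNA-annotated sequences in WT and 2.15%, 4.04% and 2.11% in Tau tg brains.

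The 373 exact matches were spread over many genes. They named 288 genes, and 133 lay in a 3′ UTR, 130 in coding sequence, 31 in a 5′ UTR and 79 in a transcript without coding sequence. Their sum was 734, 558 and 331 RPM in WT brains and 581, 493 and 579 RPM in Tau tg brains, which made 2.85%, 1.14% and 0.678% of the RPM of mRNA-annotated sequences in WT and 3.38%, 1.48% and 1.57% in Tau tg brains. Of the 373, 347 (93.0%) were above 0 in a single sample, beside 81.9% of all mRNA-annotated sequences, and 3 were above 0 in all 6. The median of their mean levels was 0.818 RPM. Their median viability was 59.8%, and 140 (37.5%) had a seed under 50% viability, against 38.3% of all mRNA-annotated sequences.

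Some exact matches also had letters of tRNAs. Of the 373, 32 shared at least 16 nt with tRNA-annotated sequences or ended in CCA, the end that cells add to tRNAs, and these made 22.7% of the RPM of the exact matches. The most abundant were 2 sequences in Hif3a, a subunit of hypoxia-inducible factor, and Adarb2, a brain member of the ADAR family, with the CCA in capitals.
Hif3a exact, tRNA-like: accccactcctggtaCCAa
Adarb2 exact, tRNA-like: tccctgttcgggcgCCAaa
The Hif3a sequence lies at chr7:17053765-17053783 (minus strand, coding sequence) and was at 11.2, 80.0 and 11.9 RPM in WT brains and 8.39, 22.6 and 66.3 RPM in Tau tg brains. The Adarb2 sequence lies at chr13:8767046-8767064 (plus strand, 3′ UTR) and was at 36.5, 6.78 and 16.5 RPM in WT brains and 17.6, 41.0 and 25.4 RPM in Tau tg brains. Both were present in every sample. A CCA near the 3′ end was found in 14.2% of the RPM of all mRNA-annotated sequences, in 15.96% for mRNA-annotated sequences of 15 to 18 nt and in 5.79% for miRNAs. The 12-nt stretch itself ends in CCA, and without the sequences that carry it the share was 9.91%. A CCA was found in 61.8% for the mRNA-annotated sequences that shared 16 nt with tRNA-annotated ones.

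Among the gene lists examined, exact matches were most frequent for the mitochondrial genome, whose mRNAs encode subunits of the respiratory chain. Of its 13 protein-coding genes 11 were named, by 52 sequences, and 48 of these were exact. They summed to 178, 0 and 20.2 RPM in WT brains and to 71.7, 24.3 and 17.2 RPM in Tau tg brains, so WT 2 had none listed and the groups overlapped. mt-Nd4, a subunit of complex I, had 56.2, 0 and 0 RPM in WT brains and 11.4, 0 and 12.7 RPM in Tau tg brains. mt-Co1, a subunit of cytochrome oxidase, had 20.6, 0 and 20.2 RPM in WT brains and 9.39, 0 and 4.50 RPM in Tau tg brains. None of the 10 genes tested of this list passed the test in either direction.

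Few sequences were named after the cell type markers examined. None of the 5 neuronal, 5 microglial or 5 pituitary markers was named by any sequence. The summed levels of the other marker lists were also low. The oligodendrocyte markers (2 of 5 named) were at 0 in WT and between 3.27 and 20.1 RPM in Tau tg brains, and the astrocyte markers (5 of 5 named) were between 10.8 and 44.7 RPM in WT brains and between 0 and 11.9 RPM in Tau tg brains. The blood markers (1 of 5) were at up to 2.34 RPM and the choroid plexus markers (2 of 5) at up to 9.82 RPM. None of the sequences naming a marker matched its transcript exactly, so these sums do not measure the cell types. Mapt, the mouse tau gene, had 1 sequence, at 1.85 RPM in Tau tg 1 and 0 elsewhere, and Thy1, whose promoter drives the transgene, had 2 sequences, an exact one at 4.70 RPM in Tau tg 1 and another, without an exact match, at 11.9 RPM in WT 3.

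The other gene lists gave counts in the same range. Of 20 genes of synapse and excitability 14 were named, by 32 sequences of which 5 were exact. Grin1, an NMDA receptor subunit, summed to 7.96, 0 and 16.5 RPM in WT brains and to 12.9, 14.2 and 4.09 RPM in Tau tg brains, and Camk2b, a calcium-dependent kinase, was at 27.1 RPM in WT 2, at 7.37 RPM in Tau tg 3 and at 0 elsewhere. Of 13 genes linked to Alzheimer disease and tau 6 were named, among them Gsk3b, a tau kinase, and Clu, an apolipoprotein. Of 12 genes of RNA silencing 4 were named, including Tnrc6b and Tnrc6c, members of the GW182 family that bind Ago. Of 28 ribosomal protein genes 7 were named, of 10 immediate early genes 1 (Npas4), and of 20 cytoskeletal and housekeeping genes 5. No gene of any of these lists passed the test in either direction. The median log2 difference of the tested genes lay between -1.23 and 0.97 across these 6 lists, beside -0.37 over all features tested.

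The seeds of the mRNA-annotated sequences differed from those of miRNAs in the same libraries. U was the first base in 34.7%, 27.6% and 24.0% of their RPM in WT brains and 26.5%, 26.2% and 25.7% in Tau tg brains, against 70.2% to 73.1% for miRNAs of 19 to 25 nt. The mean was 27.5% ± 3.74 (SD, n = 6) against 71.6% ± 1.05 (SD, n = 6), a difference of -44.1 percentage points in the same direction in 6 of 6 samples (exact sign-flip permutation test, two-sided, p = 0.03125, adjusted p = 0.0375 over 6 comparisons). This p is the smallest that 6 samples allow. Among the other first bases, C took 27.6% against 5.83% for miRNAs and G 19.4% against 2.86%.

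The seeds were also richer in G. G made 33.8% ± 2.23 (SD, n = 6) of the seed bases of the mRNA-annotated sequences and 26.7% ± 1.25 (SD, n = 6) of those of miRNAs, a difference of 7.07 percentage points in 6 of 6 samples (exact permutation p = 0.03125, adjusted p = 0.0375). The weighted mean viability was 51.4% ± 3.03 (SD, n = 6) against 58.1% ± 0.998 (SD, n = 6), a difference of -6.71 points in 6 of 6 samples (exact permutation p = 0.03125, adjusted p = 0.0375). Among exact matches to any transcript the picture changed: the difference in seed G content turned to -1.39 points (exact permutation p = 0.1875), and that in viability was -3.37 points (exact permutation p = 0.15625). By class, G made 25.98% of the seed bases of the exact matches and 35.9% of those of the sequences in none of the classes.

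Against the shorter mRNA-annotated sequences of 15 to 18 nt the differences were smaller. A first U was more frequent in the 19 to 25 nt class by 6.21 percentage points (21.3% ± 0.621 in the short class, SD, n = 6), and seed G by 3.85 points (29.9% ± 0.646, SD, n = 6), each in 6 of 6 samples (exact permutation p = 0.03125, adjusted p = 0.0375). The viability was lower by a difference of -2.92 points in 5 of 6 samples, which did not pass the test (exact permutation p = 0.0625). WT 1 was the sample that went the other way, with 56.4% against 55.3%. In the sequences of none of the classes, chosen after the data were seen, the difference in first U was -0.52 points (exact permutation p = 0.40625).

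Seeds under 50% viability were carried by 5144 of the 13428 sequences (38.3%). The 3389 seeds were unevenly used, and the 5 largest made 22.2% of the mean RPM. GCCUGG (viability 33.2%), the seed of the Gm12405 family, summed to 788, 6699 and 4227 RPM in WT brains and to 1209, 3513 and 3758 RPM in Tau tg brains, and mRNA-annotated sequences made 96.4% of all RPM with that seed. GCGGGU (viability 30.9%), the seed of the Plec family, summed to 329.8, 2072 and 2743 RPM in WT brains and to 975, 2093 and 2617 RPM in Tau tg brains, with 98.2% from mRNA-annotated sequences. AACACC (viability 53.0%) had 241, 472 and 2400 RPM in WT brains and 1107, 892 and 2096 RPM in Tau tg brains. By contrast, AGCUUA (viability 80.2%), the seed of miR-21a-5p, had 214 to 635 RPM in mRNA-annotated sequences but 30341 mean RPM in miRNA sequences, so the former made 1.25% of it. For 735 seeds the mRNA-annotated sequences supplied over 50% of the RPM.

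The first comparison of the genotypes asked whether Tau tg brains held more of these RNAs, or more toxic ones. The mRNA-annotated sequences made 2.69%, 5.19% and 5.33% of the reads in WT and 1.75%, 3.44% and 3.81% in Tau tg brains. The Wilson 95% interval, which covers counting error only, was widest for WT 3, at 5.29% to 5.38%. The WT mean was 4.40% ± 1.49 (SD, n = 3), the Tau tg mean was 3.001% ± 1.10 (SD, n = 3), and the groups overlapped (exact two-sided permutation test, p = 0.3, adjusted p = 0.5 over 5 measures). The lowest share was that of the deepest library, Tau tg 1. With 3 samples a group this test cannot go below 0.1, so it cannot reach 0.05. No source used here says from how many litters the mice came, and p-values measure only the spread between these samples.

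The viability of the seeds overlapped as well. The weighted median viability was 60.4%, 53.0% and 53.0% in WT brains and 53.0%, 49.0% and 50.5% in Tau tg brains, with a WT mean of 55.5% ± 4.27 (SD, n = 3) and a Tau tg mean of 50.8% ± 2.02 (SD, n = 3) (exact permutation p = 0.3, adjusted p = 0.5). The share of RPM with a seed under 50% viability was 35.6%, 47.0% and 44.3% in WT brains and 43.3%, 50.6% and 49.3% in Tau tg brains, with means of 42.3% ± 5.93 (SD, n = 3) and 47.7% ± 3.91 (SD, n = 3) (exact permutation p = 0.3, adjusted p = 0.5). WT 1 had the highest viability. Without the 12-nt stretch WT 1 was still the highest, with a weighted median viability of 55.3%, 50.3% and 53.0% in WT brains and of 53.0%, 50.9% and 51.3% in Tau tg brains. The difference of Tau tg from WT moved from -4.63 to -1.13 points, and that in the share under 50% viability from 5.41 to 1.75 percentage points. In 2 other settings the groups did not overlap. Among sequences in none of the classes, chosen after the data were seen, the weighted median viability was between 46.9% and 55.2% in WT brains and between 43.7% and 45.0% in Tau tg brains (exact permutation p = 0.1, the smallest possible). With each sequence counted once the difference was -1.77 points, also without overlap (exact permutation p = 0.1). Among exact matches to any transcript the weighted median viability was 54.2%, 68.7% and 55.1% in WT brains and 62.0%, 54.9% and 63.6% in Tau tg brains, a difference of 0.833 points in the opposite direction.

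The base composition did not separate the groups either. Seed G content was 30.9%, 34.3% and 33.5% in WT brains and 31.8%, 37.1% and 34.8% in Tau tg brains, with means of 32.9% ± 1.78 (SD, n = 3) and 34.6% ± 2.66 (SD, n = 3) (exact permutation p = 0.4, adjusted p = 0.5). A first U had means of 28.8% ± 5.45 (SD, n = 3) and 26.2% ± 0.420 (SD, n = 3) (exact permutation p = 0.7, adjusted p = 0.7). Without the most abundant sequence of each sample the shares of first U were 25.96%, 26.8% and 26.5% in WT brains and 29.6%, 29.1% and 28.9% in Tau tg brains, so the direction turned and the groups no longer overlapped (exact permutation p = 0.1, the smallest possible).

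For single sequences, few differences between the genotypes were found. In a limma fit on log2(RPM + 1) over all 36070 sequences of the table with a mean of at least 1 RPM, 7535 of the 13428 mRNA-annotated sequences could be tested. Of these, 53 were higher and 41 lower in Tau tg at an unadjusted p under 0.05, where over all sequences 1.44% were higher and 0.787% lower. After Benjamini-Hochberg adjustment 3 passed, beside 0.0277% of all sequences. A sequence that is listed in a single group passes the filter through that group, so the number tested is no measure of stability. All 3 that passed carried the 12-nt stretch: Kdm5a-named sequences of 19 and 20 nt, which were lower, and the Hgfac-named sequence, which was higher. When sequences with that stretch were left out, none passed by limma with adjustment, and 84 had an unadjusted p under 0.05. On recovered reads and with the stretch sequences kept, 22 passed by edgeR and 194 by DESeq2, beside 49 and 459 of all 36070 sequences.

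The Kdm5a-named sequence of 19 nt stood at 3241, 2237 and 3.67 RPM in WT brains and at 0.854, 0.836 and 0 RPM in Tau tg brains. WT 3 thus lay nearer to the Tau tg samples than to the other 2 WT samples. The log2 difference was -7.75 ± 0.85 (SE, limma adjusted p = 3.51e-15). The Hgfac-named one stood at 0 in the 3 WT samples and at 0.285, 1066 and 610.4 RPM in Tau tg brains, where Tau tg 1 lay at the WT level. Its fitted log2 difference was 6.56 ± 0.99 (SE, limma adjusted p = 7.75e-07), which depends on the pseudocount because WT is listed at 0. Both differences follow the library pattern of the shared stretch given above.

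Other sequences were called only before adjustment. The G6C variant of miR-21a-3p with 22 nt was at 152, 386 and 1506 RPM in WT brains and 889, 595 and 1660 RPM in Tau tg brains (log2 difference 1.10 ± 0.49 (SE), limma adjusted p = 0.584), and the groups overlapped. A 23-nt form of it stood at 4.68, 1.35 and 18.3 RPM in WT brains and at 41.8, 181 and 65.5 RPM in Tau tg brains, without overlap (log2 difference 3.65 ± 0.85 (SE), limma adjusted p = 0.0540). A more abundant 23-nt form with G6C was at 9.84, 0 and 559 RPM in WT brains and at 57.9, 27.6 and 89.6 RPM in Tau tg brains. A further one was at 0, 30.5 and 82.6 RPM in WT brains and at 6.40, 0 and 30.7 RPM in Tau tg brains. In both of these the groups overlapped and WT 3 was the highest sample. A Zdhhc3-named sequence was at 0 in the 3 WT samples and at 25.6, 3.35 and 61.0 RPM in Tau tg brains (limma adjusted p = 0.244). A Mxra7-named sequence was at 50.1, 41.3 and 17.4 RPM in WT brains and at 0, 0 and 9.82 RPM in Tau tg brains (limma adjusted p = 0.148), and an Elavl3-named one was at 28.1, 37.9 and 43.1 RPM in WT brains and at 20.3, 0.836 and 0.409 RPM in Tau tg brains (limma adjusted p = 0.383). The last 2 matched their transcripts over 14 nt only.

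Summing the sequences by gene name gave 4665 gene names with a mean of at least 1 RPM, tested in 1 fit with all other features of the table (10967 in all). At an unadjusted p under 0.05, 34 were higher and 49 lower in Tau tg, where 0.657% and 1.28% of all features were. After adjustment 2 passed, beside 0.0274% of all features. Both of them, Kdm5a and Hgfac, owed most of their level to the 12-nt stretch. The median log2 difference of the gene names was -0.34 and that of all features -0.37. Groups that did not overlap were found for 59 gene names that were higher (1.26%) and 48 that were lower (1.03%) in Tau tg, beside 1.57% and 1.37% of all features, so these counts were not above the background.

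Kdm5a, a histone demethylase of H3K4 methylation (chr6:120364124-120444574), summed to 3521, 2526 and 36.7 RPM in WT brains and to 1.14, 0.836 and 3.68 RPM in Tau tg brains. The log2 difference was -8.04 ± 0.95 (SE, limma adjusted p = 2.02e-13), and its leading sequence made 90.0% of the level. Without the stretch the log2 difference was -4.17 with an adjusted p of 0.570. Hgfac, a protease that activates hepatocyte growth factor (chr5:35041509-35048461), summed to 0 in WT and to 0.285, 1227 and 715 RPM in Tau tg brains, with a fitted log2 difference of 6.70 ± 1.29 (SE, limma adjusted p = 0.00111). All 3 of its sequences carried the stretch, so nothing was left without it. Leaving out Tau tg 2 raised its limma adjusted p to 0.693, and leaving out Tau tg 3 raised it to 0.667.

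Of the other abundant names, Fbn1, which encodes fibrillin (chr2:125300594-125507993), summed to 1.87, 8.81 and 1502 RPM in WT brains and to 366, 0 and 3.27 RPM in Tau tg brains (log2 difference -1.59 ± 1.12 (SE), limma adjusted p = 0.570), and 13 of its 16 sequences carried the stretch. Gm5834, a pseudogene, was at 976 RPM in WT 3 and at 0 in the other 5 samples, and its leading sequence carried the other shared stretch, of 11 nt. It had an unadjusted limma p of 0.0407 (adjusted p = 0.570), which rested on that 1 library, and by edgeR its adjusted p was 8.87e-17. For Gm12405 the log2 difference was -0.14 ± 0.33 (SE), for Plec 0.43 ± 0.39 (SE) and for Vmp1 0.56 ± 0.39 (SE), and none of these passed (limma adjusted p = 0.834, 0.570 and 0.570).

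Further gene names without overlap between the groups had low levels. Smc1b, a cohesin subunit of meiosis, was at 0 in WT and at 30.7, 18.4 and 83.5 RPM in Tau tg brains, in 17 sequences with 11 seeds (limma adjusted p = 0.469, edgeR adjusted p = 0.0344, DESeq2 adjusted p = 0.000173). Adam12, a metalloprotease, was at 0, 2.71 and 0 RPM in WT brains and at 8.25, 21.7 and 93.7 RPM in Tau tg brains, and Sbno2 and Hsph1, the latter a chaperone of the heat shock response, were at 0 in WT and at up to 31.9 and 36.8 RPM in Tau tg brains. Without Tau tg 3, these 3 no longer had an unadjusted limma p under 0.05, with log2 differences of 3.23, 3.63 and 3.20. By DESeq2 with all samples, Adam12 (adjusted p = 0.0360) and Sbno2 (adjusted p = 0.0466) passed adjustment, and by edgeR neither did (adjusted p = 0.358 for each). All 4 names were chosen for groups that do not overlap and passed the level filter through Tau tg, so their p-values are no separate support. No sequence of these 4 names matched its transcript exactly.

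Among the lower ones, Zfyve16, an endosomal protein, was at 32.3, 54.9 and 22.9 RPM in WT brains and at 0.142, 0 and 0 RPM in Tau tg brains (log2 difference -5.08 ± 1.43 (SE), limma adjusted p = 0.570). Nlrc4, an inflammasome protein, was at 6.09, 56.9 and 33.9 RPM in WT, Prkar1b, a regulatory subunit of protein kinase A, at 15.5, 44.0 and 16.5 RPM, and Plekhh3 at 11.7, 32.5 and 21.1 RPM, and all 3 were at 0 in Tau tg. Their limma p-values after adjustment were 0.570 as well. By DESeq2 on recovered reads all 4 passed adjustment (Zfyve16 9.50e-05, Nlrc4 0.000285, Prkar1b 0.00134, Plekhh3 0.00365), and by edgeR none of them did (adjusted p = 0.358 for each). All 4 were chosen for groups that do not overlap and passed the level filter through WT, so their p-values are no separate support. By DESeq2 144 of all features were higher and 703 lower at an unadjusted p under 0.05, with a median log2 difference of -1.05. Of the sequences behind these 4 names, 1 of Prkar1b matched its transcript exactly.

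By seed, 2930 seeds of mRNA-annotated sequences had a mean of at least 1 RPM and were tested in 1 fit with the seeds of all other sequences (6796 features). At an unadjusted p under 0.05, 29 were higher and 53 lower in Tau tg, where 1.06% and 2.37% of all features were. After adjustment 3 passed, beside 0.103% of all features. UAGUCG summed to 3608, 2607 and 3.67 RPM in WT brains and to 1.28, 10.9 and 17.6 RPM in Tau tg brains (log2 difference -5.47 ± 0.79 (SE), limma adjusted p = 2.72e-08), and 98.1% of its level carried the stretch. GGGGGC summed to 0, 12.9 and 0 RPM in WT brains and to 9.25, 1355 and 767 RPM in Tau tg brains (log2 difference 6.52 ± 1.02 (SE), limma adjusted p = 5.51e-07), with 96.1% from the stretch. In both seeds the groups overlapped, since WT 3 and Tau tg 1 went against their groups.

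Without the stretch neither of them passed. For UAGUCG the log2 difference was then -1.11, with a limma adjusted p of 0.922. For GGGGGC it was 2.90, with a limma adjusted p of 0.911, so that what was left of both was within the spread between samples. The other seed that passed was GUACGC (viability 71.8%), which summed to 0.936, 0 and 0 RPM in WT brains and to 1017, 63.6 and 6.96 RPM in Tau tg brains, in 23 sequences of 20 gene names (log2 difference 6.01 ± 1.36 (SE), limma adjusted p = 0.0111). Most of its level was in Tau tg 1, and without that sample its limma adjusted p was 0.935. The 22 sequences described above that lay almost wholly in Tau tg 1 had the same weighted median viability, 71.8%. Their overlap with this seed was not counted. mRNA-annotated sequences made 19.5% of all RPM with this seed. Among the lower seeds ACCGCA (viability 74.5%), at 11.2, 119 and 66.0 RPM in WT brains and at 0 in Tau tg in 4 sequences, had the next smallest p (log2 difference -5.53 ± 1.58 (SE), limma adjusted p = 0.316, edgeR adjusted p = 6.49e-05, DESeq2 adjusted p = 1.40e-05). AACACC, the seed made by G6C, had a log2 difference of 0.97 ± 0.40 (SE) with an unadjusted limma p of 0.0161 (adjusted p = 0.912) and overlapping groups. Without WT 3 the log2 difference was 1.91 (limma adjusted p = 0.0290), and without WT 1 it was 0.26 (limma adjusted p = 0.824).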

How the data were processed

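Small RNA bound to Ago proteins was pulled down with a GW182 peptide and sequenced in 3 WT and 3 Tau tg brains, and groups were read from the sample titles. The authors ran the SPOROS pipeline, which trimmed the reads (Trim Galore per the labels), dropped rare reads, annotated unique sequences by BLAST and removed artificial ones. The deposited values are RPM, scaled by the authors to a fixed total per sample. Each value was a whole multiple of 1 read within 0.05 reads (100% of values), which gave recovered reads for edgeR and DESeq2 as alternatives. The deposited viability of each seed, a percent averaged over 3 murine cell lines by the authors, was used unchanged. The table holds 1 more column of values, a total that exceeds the sum of the 6 samples, which was not used.

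Sequences were compared with GENCODE M21 transcripts and 1005 RefSeq hairpins. The aligner settings and versions of the authors are not given in the sources used here, and none of their coordinates were used.

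Sequences, gene names and seeds were fitted over the whole table with limma 3.58.1 (mean-variance trend, log2(RPM + 1), mean of at least 1 RPM, Benjamini-Hochberg adjustment). Fold changes on this scale understate changes of low sequences. edgeR 4.0.16 called 905 mRNA-annotated sequences at an unadjusted p under 0.05 (22 after adjustment) and DESeq2 1.42.0 called 1065 (194 after adjustment). Over all 36070 sequences edgeR called 2564 (49 after adjustment) and DESeq2 3344 (459 after adjustment). Measures per sample were compared by exact permutation tests. The fits ran in R 4.3.3, and the other steps ran in Python 3.11.15 with SciPy 1.17.1, pandas 2.3.3 and NumPy 2.4.6.

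Named were the 10 most abundant gene names and sequences, the 5 most abundant seeds and the 3 most abundant under 50% viability. Added were, among features at an unadjusted p under 0.05 without overlap, up to 5 gene names and 3 sequences with the largest difference in each direction, gene names past adjustment, up to 2 called seeds each way by p, the 2 largest of each gene list, Mapt and Thy1. The other exact matches printed with their sequence, the shared stretches and the miRNA substitutions were chosen after their values were seen. The members and lists were chosen with earlier results of these data known. The fits were tested on simulated data: with 200 of the 36070 sequences changed 8-fold at a dispersion of 0.1, limma recovered 91.5% after adjustment, and at the dispersion estimated from these data (4.87) it recovered 0%. Alternatives were other pseudocounts, filters, scalings, tests and subsets, the replicate number as a block, and fits without 1 of the samples.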

Additional observations from a re-analysis of the deposited data

How the results depend on the processing

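With 3 samples a group the exact tests of the genotypes cannot go below 0.1, and with 5 samples left the sign-flip tests cannot go below 0.0625, so a p above 0.05 there says nothing on stability. Dropped rare reads limit every value near 0. The difference of Tau tg from WT changed sign for exact matches to a transcript in the share of reads (0.00355 percentage points), the median viability (0.833) and the share under 50% viability (-2.79). For sequences above 0 in all 6 samples it changed sign in the share under 50% viability (-3.70) and in seed G (-2.13). The difference in first U turned to 1.005 without the 12-nt stretch, 2.78 without the most abundant sequence of each sample and, among alternatives chosen after seeing the data, to 1.66 without both stretches and the family of Tau tg 1 and to 0.637 for sequences in none of the classes. Against miRNAs, exact matches gave -1.39 for seed G and -3.37 for viability, which no longer passed. Against short mRNA-annotated sequences, exact matches gave -4.61 for seed G and 0.425 for viability. The difference in first U from the short class was 0.996 for sequences in all 6 samples, 2.99 at 21 to 23 nt and -0.523 for those in none of the classes, and the first 2 of these no longer passed. The difference in viability from the short class reached the smallest exact p (0.03125) without the 12-nt stretch (-3.34), in all 6 samples (-10.1), without the most abundant sequences (-2.66), at 21 to 23 nt (-6.47), without both stretches and the family (-3.82) and in none of the classes (-5.06). The cause was not tested. Without the stretch the difference in median viability was -1.13 and that in the share under 50% viability 1.75.

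Leaving out 1 sample gave differences between the genotypes of -2.26 to -0.779 in the share of reads, -5.87 to -2.17 in median viability, 2.08 to 7.76 in the share under 50% viability, 0.445 to 3.10 in seed G and -4.99 to 0.364 in first U, which turned only without WT 1. Against miRNAs the ranges were -45.5 to -43.2 for first U, 6.64 to 7.81 for seed G and -7.88 to -6.13 for viability. Against the short class they were 4.68 to 6.75 for first U, 3.38 to 4.36 for seed G and -3.72 to -2.28 for viability.

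The calls of sequences at an unadjusted p under 0.05 (94) fell to 53 with a pseudocount of 5 and to 16 at a mean of at least 10 RPM. By edgeR there were 905 (97 higher, 808 lower) and by DESeq2 1065 (50 higher, 1015 lower). Over all 36070 sequences edgeR called 357 higher and 2207 lower, and DESeq2 260 higher and 3084 lower, so both fits leaned to lower calls table-wide. Adjusted calls of mRNA-annotated sequences (3) were 5 with a pseudocount of 0.1, 0 with a pseudocount of 5, 0 at 10 RPM, 1 without the trend, 22 by edgeR, 194 by DESeq2 and 0 without the stretch. Over all sequences the adjusted calls were 49 by edgeR and 459 by DESeq2. The calls of gene names (83) were 25 at 10 RPM, 164 without the trend, 238 by edgeR (53 higher, 185 lower) and 421 by DESeq2 (85 higher, 336 lower), and adjusted calls (2) were 1, 2, 13 and 80, and 0 without the stretch. The calls of seeds (82) were 38, 130, 170 (67 higher, 103 lower) and 226 (85 higher, 141 lower), and adjusted calls (3) were 2, 0, 14 and 17, and 1 without the stretch. Over all gene-level features edgeR called 94 higher and 331 lower (16 adjusted), and DESeq2 144 higher and 703 lower (144 adjusted). Over all seed features edgeR called 133 higher and 160 lower (22 adjusted), and DESeq2 155 higher and 228 lower (28 adjusted). Leaving out 1 sample gave 62 to 127 sequences (0 adjusted without Tau tg 2, 7 without WT 3), 47 to 124 gene names (1 to 2 adjusted) and 48 to 132 seeds (0 adjusted without Tau tg 2, 5 without WT 3). The numbers fell most without Tau tg 2 (62 sequences, 47 gene names) or Tau tg 3 (49 gene names, 48 seeds), and seeds rose most without WT 1 (132). Median-of-ratios scaling moved the median log2 difference of all sequences from -0.16 to -0.27 and that of all seeds from -0.14 to -0.03. Quantile normalization moved the median log2 difference of all sequences from -0.16 to -0.03, of all gene-level features from -0.37 to -0.12 and of all seeds from -0.14 to 0.02. The split of higher and lower calls moved with it from 53 and 41 to 68 and 24 for sequences, from 34 and 49 to 41 and 25 for gene names and from 29 and 53 to 48 and 29 for seeds. Directions of these counts are thus relative to the median of all features.

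With the replicate number as a block the calls were 92 sequences (4 adjusted), 91 gene names (2 adjusted) and 87 seeds (3 adjusted). Deviations of samples with the same number correlated at -0.016 to 0.026 across features, and not every sample correlated best with its own number, so the numbers were not taken to pair the samples. The block moved no count by more than 1.5 times.

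Of the gene names and seeds called and described above, each kept its direction under the alternatives that gave a value. Adam12, Sbno2 and Hsph1 lost their unadjusted call without Tau tg 3. Gm5834, listed in WT 3 alone, lost its call with a pseudocount of 0.1, at 10 RPM and without each of the Tau tg samples, and had no value without WT 3. UAGUCG and GGGGGC lost theirs without the stretch and GUACGC without Tau tg 1. AACACC lost its call in 7 settings, which were limma without trend, edgeR, DESeq2 and leaving out WT 1, WT 2, Tau tg 2 or Tau tg 3. Adjusted p over the alternatives ranged from 6.61e-36 to 0.570 for Kdm5a, from 3.47e-27 to 0.693 for Hgfac, from 1.48e-27 to 0.936 for UAGUCG, from 1.78e-18 to 0.936 for GGGGGC and from 3.53e-23 to 0.936 for GUACGC. For Smc1b, Zfyve16, Nlrc4, Prkar1b, Plekhh3, Adam12 and Sbno2, which passed adjustment by DESeq2, and for Smc1b also by edgeR, the highest adjusted p was 0.937, or 0.693 for Sbno2. ACCGCA passed by both.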
